A study of Mus musculus with 40 samples.

Results

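The genes described here are those of glycolysis and of the transcriptional response to low oxygen, followed in mouse neural stem cells over 40 arrays. They are 34 genes listed by name for their known roles, among the 11087 genes tested in the series. Hk2, Gpi1 and Eno1 have no probe under those symbols and are not analysed here. Of the 31 genes with a probe, 29 passed a filter that asked for 3 or more arrays with a detection p below 0.01, with 51 of their 59 probes. The mitophagy receptor gene Bnip3 was detected on 0 arrays. Pfkfb3, whose product makes the activator of phosphofructokinase, was detected on 2 arrays, just outside the rule. Slc16a3, P4ha2 and Car9 met it only through arrays of 24 h or later, so they had to read higher there. Their rise over time is described below, but counts of change from 18 h within an agent leave them out except where stated. Counts between agents, and of how the difference between agents changed with time, include them.

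Glycolysis splits glucose into pyruvate, and lactate dehydrogenase turns pyruvate into lactate, which leaves the cell through monocarboxylate carriers. In normal oxygen, prolyl hydroxylases of the EGLN family mark the alpha subunits of hypoxia-inducible factor (HIF) for destruction. When oxygen falls the subunits persist, pair with ARNT and raise glycolytic enzymes, glucose carriers, Vegfa, Car9 and Egln3 itself. Neural stem cells are known to rely on glycolysis more than the cells they form.

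Each array measured total RNA from primary cultures of E13.5 telencephalon. All cells, controls included, carried Id1L/L and Id2L/L alleles that Cre can delete, were Id3-/-, and held Rosa-Cre-ER on a 129/Svj;C57Bl/6 hybrid background. Id3 was thus absent from every culture. Id genes encode inhibitors of basic helix-loop-helix transcription factors. Cultures grew on laminin with 20 ng/ml of EGF and the same of FGF-2. They received either 250 nM 4-hydroxytamoxifen (4-OHT) in ethanol or the vehicle. 4-OHT turns on the Cre recombinase placed at the broadly expressed Rosa locus and so deletes Id1 and Id2. The 14 groups are each agent at 6, 12, 18, 24, 48, 96 and 144 h, with 3 arrays a group and 2 at 144 h. None of the arrays used here holds 4-OHT on cells without Cre, so that the drug, the recombinase and the loss of Id1 and Id2 cannot be told apart. The labels do not say whether replicates came from separate cultures or animals, and p-values measure only the spread between these arrays, which may be technical.

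Levels are log2 intensities after background correction and quantile normalization, differences are in log2 units, and a gene was called at an adjusted p under 0.05 in a limma fit across all probes. Median intensity ran from 32.2 to 51.1 and detected probes from 15884 to 19186, except on vehicle 6 h replicate C, a dim array with 25.8 and 12947. The deletion showed in each replicate letter: at 96 h Id2 differed by -5.18, -5.13 and -4.52 in A, B and C, and Id1 by -5.1, -4.98 and -4.3. At 24 h the differences were smaller, -2.83, -2.84 and -2.62 for Id2 and -1.29, -1.04 and -0.48 for Id1. Id4 was higher with 4-OHT, by 2.3, 2.44 and 1.19 at 24 h and 3.13, 3.38 and 3.46 at 96 h. Of 10 neural stem cell markers 9 passed, among them Nes, Sox2 and Fabp7 on all 40 arrays, while 0 of 6 endothelial and pericyte markers did. In RNA from whole cultures, fewer cells of a type and less RNA per cell cannot be told apart.

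Array numbers in the labels form 3 series, which the labels do not call batches: replicates A and B at 18 to 144 h, replicate C at 18 to 144 h, and all arrays of 6 and 12 h. Replicate C stood apart for the hypoxia genes. In vehicle at 96 h, 18 of the 29 tested members read more than 2-fold below the lower of A and B in C, against 3.6% of all genes, and 0 read more than 2-fold above. With 4-OHT at 96 h the count was 11 (2.84% of all genes), and at 18 h it was 3 in vehicle (1.14%) and 4 with 4-OHT (2.45%). At 144 h 4-OHT replicate C had 0 members more than 2-fold below A, and vehicle C had 10 (5.66%). Detection was no lower in C, with 18150 to 18896 probes against 15884 to 19186 on the arrays of A and B at these times. At 96 h summed neural stem cell marker intensity in vehicle, before normalization, was 28610, 31590 and 18620 in A, B and C. That of oligodendrocyte markers was 16550, 17330 and 10360, also lowest in C. The 95th percentile of intensity on these arrays was 1109, 1210 and 653.7, so array brightness enters both sums. The part of these markers, or of the array series, in the hypoxia levels was not tested. Results on the members that rest on the replicates are therefore given with and without C, a choice made after seeing the data. A p-value without C leaves out the gap between C and the other letters, so it says nothing of whether a change held in C.

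Vegfa, the main blood vessel growth factor, shows the pattern. In vehicle its level was 9.3, 9.16 and 8.75 at 18 h (A, B and C), 9.64, 9.22 and 8.2 at 24 h, 9.93, 10.19 and 8.34 at 48 h, and 12.6, 12.73 and 9 at 96 h. A and B climbed, and C stayed near its 18 h level until 144 h, where vehicle A read 13.02 and C 11.49. With 4-OHT the levels at 96 h were 11.67, 11.91 and 8.71.

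**Figure D1:**
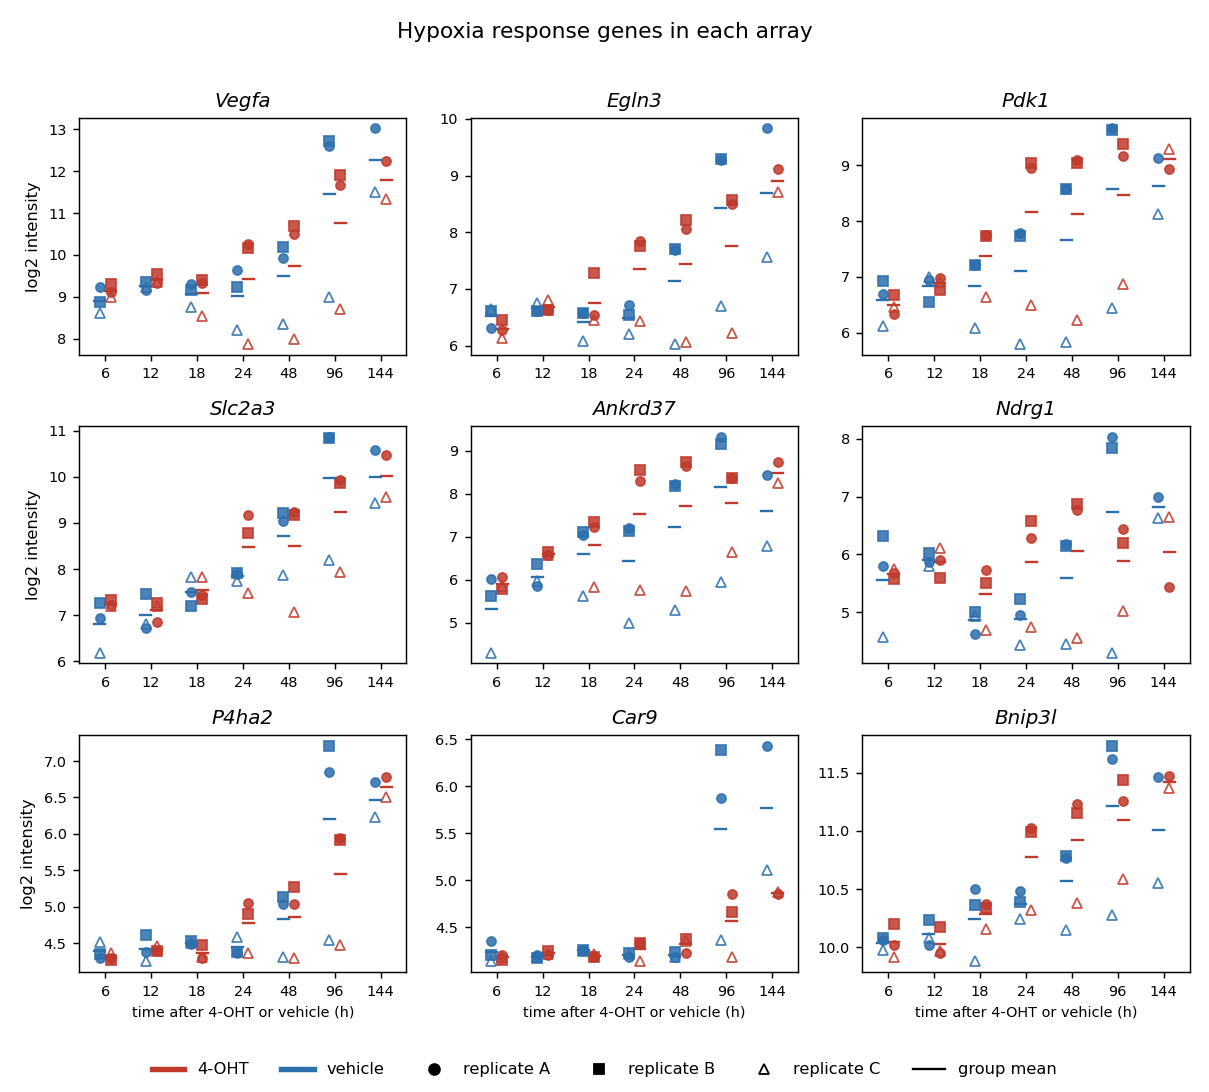
Log2 intensity (vertical axis) of 9 hypoxia response genes on each array against the time after 4-OHT (red) or vehicle (blue). Symbols give the replicate letter (open triangles are replicate C) and dashes the group mean. Vegfa in vehicle at 96 h reads 12.6 and 12.73 in A and B and 9 in C.

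The promoters of 5 members described below are shown because they carry the core letters bound by HIF, ACGTG or GCGTG. Sequences are the 250 bases upstream of the transcription start in RefSeq, GRCm38.p6, written 5′ to 3′ on the gene's strand, with each match on either strand in capitals (a match on the other strand reads CACGT or CACGC, and in Ankrd37 a match on each strand overlap in one run). Ankrd37 lies on the minus strand at chr8:45999851-46000100. Car9 lies on the plus strand at chr4:43506776-43507025, P4ha2 at chr11:54100674-54100923, Pdk1 at chr2:71872974-71873223 and Slc16a3 at chr11:120948817-120949066, each on the plus strand.
Ankrd37: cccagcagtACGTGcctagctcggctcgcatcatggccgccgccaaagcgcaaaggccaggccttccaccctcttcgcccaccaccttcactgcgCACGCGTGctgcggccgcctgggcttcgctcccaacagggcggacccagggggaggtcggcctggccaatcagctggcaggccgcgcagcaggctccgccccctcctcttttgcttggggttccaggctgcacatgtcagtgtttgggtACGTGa
Car9: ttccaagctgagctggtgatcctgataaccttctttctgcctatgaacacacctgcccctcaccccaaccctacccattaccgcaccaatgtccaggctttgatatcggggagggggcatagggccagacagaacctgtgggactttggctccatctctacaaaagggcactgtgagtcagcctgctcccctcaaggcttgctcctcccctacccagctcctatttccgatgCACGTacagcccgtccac
P4ha2: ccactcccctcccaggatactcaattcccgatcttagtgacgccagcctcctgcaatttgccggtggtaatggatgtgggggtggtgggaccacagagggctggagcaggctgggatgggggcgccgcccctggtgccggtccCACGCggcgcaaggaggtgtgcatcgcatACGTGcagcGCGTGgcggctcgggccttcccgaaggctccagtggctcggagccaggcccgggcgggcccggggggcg
Pdk1: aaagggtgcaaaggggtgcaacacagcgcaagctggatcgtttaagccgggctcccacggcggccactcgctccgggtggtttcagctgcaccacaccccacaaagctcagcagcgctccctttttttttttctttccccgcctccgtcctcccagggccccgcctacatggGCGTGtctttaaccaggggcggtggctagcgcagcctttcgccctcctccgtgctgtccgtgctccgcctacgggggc
Slc16a3: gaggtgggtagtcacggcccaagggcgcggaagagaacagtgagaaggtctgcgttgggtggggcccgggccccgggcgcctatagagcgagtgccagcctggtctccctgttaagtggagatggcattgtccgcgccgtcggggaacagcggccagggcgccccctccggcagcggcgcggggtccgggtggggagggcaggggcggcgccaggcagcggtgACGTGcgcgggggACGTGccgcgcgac

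Ankrd37 held 4 matches, the nearest beginning 6 bases before the start. Car9 held 1 match, on the other strand, 18 bases before it. Slc16a3 held 2 ACGTG, at 27 and 14 bases, P4ha2 held 3 matches and Pdk1 a single GCGTG at 78 bases. Over the list, 31 genes had 45 windows, some overlapping, and 36 of these held a match, 80% against 38.6% of all 32851 windows. The list holds known HIF targets by design, and a match describes letters, not binding. Vegfa has a window at chr17:46025164-46025413 with 2 matches and one at chr17:46032378-46032627 with none. The second window of Pdk1, at chr2:71874654-71874903, and that of Eno2 held no match.

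The first comparison asked how the genes behaved in vehicle cultures as they aged from 18 to 96 h. Of the 26 tested members other than Slc16a3, P4ha2 and Car9, 12 were called higher at 96 h, against 5.14% of all genes, and 0 lower, against 2.06%. They were 7 glycolytic enzymes, both glucose carriers, Egln3, Ddit4 and Bnip3l. The median difference over the 26 was 0.95, against 0.01 over all genes, and 25 were above 0. Without replicate C 24 of the 26 were called higher, against 19% of all genes, with a median of 1.17. Of the 12, 0 were called where A, or B, was left out in its place, 3 without vehicle 96 h replicate A or without B, 6 without vehicle 18 h A and 5 without vehicle 18 h B. A fit of these groups alone called 0 of them, and median scaling 1.

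Of 12 glycolytic enzymes tested, 7 rose. Eno2, the enolase of neurons, had levels of 5.57, 5.06 and 6.47 at 18 h and 7.12, 7.29 and 7.12 at 96 h, and the groups did not overlap. It rose by 1.47 (SE 0.33, 3 arrays a group, adjusted p = 0.00776). Aldoa, the most widely expressed aldolase, had 11.24, 11.57 and 11.43 at 18 h against 12.48, 12.24 and 11.79 at 96 h, all 96 h arrays being higher. It rose by 0.76 (SE 0.22, adjusted p = 0.035), and by 0.96 without C. Triosephosphate isomerase, Tpi1, rose by 1.28 (adjusted p = 0.025), and by 1.71 without C.

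Hexokinase Hk1, at the entry of the pathway, rose by 1.06 (adjusted p = 0.0115), from 6.23, 6.2 and 5.44 to 7.41, 6.86 and 6.77. The phosphofructokinase subunit Pfkm rose by 0.8 (adjusted p = 0.00378), while the subunits Pfkl and Pfkp differed by 1.16 and 0.81 and were not called (adjusted p = 0.278 and 0.0717). Pfkl read 10.17, 10.15 and 8.67 at 18 h and 11.45, 11.43 and 9.58 at 96 h: each letter was higher at 96 h, and C lay below A and B at both times. The aldolase Aldoc rose by 0.82, and Gapdh, which makes the NADH of the pathway, by 0.59 (adjusted p = 0.0097 and 0.0367).

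Phosphoglycerate kinase Pgk1 (0.65) and the mutase Pgam1 (0.69) were not called (adjusted p = 0.157 and 0.069). Pyruvate kinase, Pkm, had the smallest difference of the enzymes, 0.3 (adjusted p = 0.286), with 11.96, 12.38 and 12.29 at 18 h and 12.65, 12.44 and 12.45 at 96 h. All 96 h arrays lay above the 18 h arrays, by a narrow margin. Without C, 11 of the 12 enzymes were called higher.

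**Figure D2:**
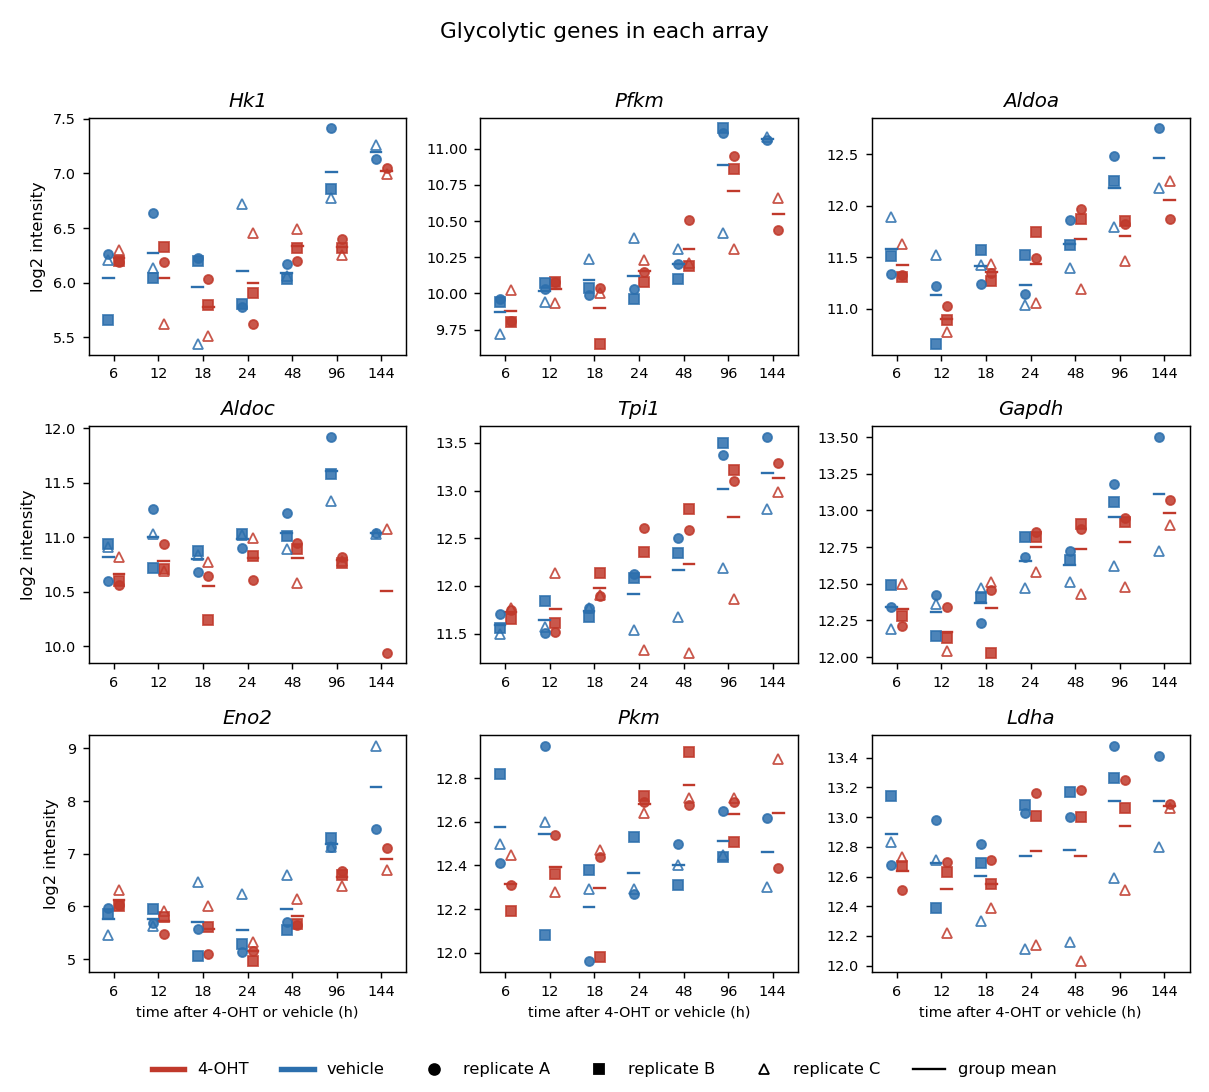
Log2 intensity (vertical axis) of 9 glycolytic genes on each array against time (horizontal axis, h), drawn as for the hypoxia genes with 4-OHT in red and vehicle in blue. Vehicle Aldoa lies between 11.24 and 11.57 at 18 h and between 11.79 and 12.48 at 96 h, while Pkm stays between 11.96 and 12.65 in the same groups.

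At the end of the pathway none of the 3 tested genes was called. The lactate dehydrogenase subunits Ldha and Ldhb differed by 0.5 and -0.22 (adjusted p = 0.331 and 0.671). Pdk1, a kinase that blocks pyruvate dehydrogenase, had 7.21, 7.21 and 6.08 at 18 h and 9.66, 9.63 and 6.45 at 96 h. A and B rose by 2.45 and 2.41 and C by 0.36, and the pooled difference of 1.74 (SE 0.8) was not called (adjusted p = 0.192). Without C it was 2.43 (SE 0.19, 2 arrays a group, limma adjusted p = 1.86e-09). That p-value leaves out the gap between C and the other letters.

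Both glucose carriers rose. The glucose carrier Slc2a3, which has high affinity and is abundant in neurons, read 7.5, 7.2 and 7.83 at 18 h and 10.86, 10.84 and 8.19 at 96 h, without overlap. Its rise was 2.45 (SE 0.57, adjusted p = 0.00918). Slc2a1, the glucose carrier of the blood-brain barrier and of most growing cells, read 9.47, 9.34 and 8.55 at 18 h and 10.78, 11.08 and 9.73 at 96 h and rose by 1.41 (adjusted p = 0.00359). It rose in every letter, by 1.31, 1.75 and 1.19. The lactate exporter Slc16a3 was not detected on any 18 h array and was detected on 2 of the 3 at 96 h, where C read 4.33, undetected.

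Of the hydroxylases, leaving P4ha2 aside, Egln3 rose. Egln3, an oxygen sensor that is itself induced through HIF, read 6.58, 6.57 and 6.09 at 18 h and 9.28, 9.29 and 6.7 at 96 h. It rose by 2.01 (SE 0.61, adjusted p = 0.042). P4ha2, a catalytic subunit of collagen prolyl hydroxylase, read 4.49, 4.53 and 4.5 at 18 h and 6.85, 7.21 and 4.54 at 96 h. It was detected on 0 of the 18 h arrays, and C stayed at its 18 h level. Egln1, the main oxygen sensor of the family, and P4ha1 differed by 0.76 and 0.92 and were not called (adjusted p = 0.206 and 0.321).

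Of the 6 other hypoxia response genes tested besides Car9, 2 rose. Ddit4, an inhibitor of mTOR signalling, read 8.47, 8.73 and 8.92 at 18 h and 10.62, 10.58 and 9.32 at 96 h, and rose by 1.47 (SE 0.29, adjusted p = 0.00309). Car9, a carbonic anhydrase of the cell surface, was undetected at 18 h, on all 3 arrays, and read 5.88, 6.39 and 4.37 at 96 h. Replicate C was not detected at 96 h either. Since Car9 met the filter only through late arrays, lower 18 h values were built in. The mitophagy receptor gene Bnip3l rose by 0.97 (adjusted p = 0.0331).

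Vegfa (2.38), Ndrg1 (1.86), Ankrd37 (1.56) and the vasodilator peptide gene Adm (0.36) were not called (adjusted p = 0.0603, 0.0857, 0.288 and 0.63). Without C they were called, with 3.44, 3.11, 2.17 and 0.77 (limma adjusted p = 6.14e-13, 1.41e-07, 1.12e-05 and 0.000832). These p-values leave out the gap between C and the other letters. In C alone, a single array a group with no test, the differences were 0.25, -0.64, 0.34 and -0.48. The median over the 26 members was 1.24 in A, 1.06 in B and 0.35 in C, with 26, 26 and 21 above 0. Over all genes the medians were 0.03, 0.04 and -0.03.

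The same interval was compared with 4-OHT. From 18 to 96 h, 3 of the same 26 members were called higher, against 7.87% of all genes, and 0 lower, against 3.84%, with a median of 0.52 against 0.02 over all genes. Pfkm read 10.04, 9.65 and 10 at 18 h and 10.95, 10.86 and 10.31 at 96 h and rose by 0.81 (SE 0.16, adjusted p = 0.00182), close to its rise in vehicle. Ddit4 rose by 1.4 (SE 0.29, adjusted p = 0.00233), from 9, 8.59 and 8.97 to 10.51, 10.49 and 9.76.

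Slc2a3 was the third and stood at the threshold. It read 7.43, 7.36 and 7.83 at 18 h and 9.94, 9.87 and 7.93 at 96 h, a rise of 1.71 (SE 0.57, adjusted p = 0.0495) that lay in A and B. The call was lost without any one of 4-OHT 18 h A or B and 96 h A or B (adjusted p = 0.131, 0.166, 0.273 and 0.229). Without C, 16 of the 26 were called higher, against 21.6% of all genes, and Adm was lower (-0.46, adjusted p = 0.0311), against 15.9%. Slc2a1 moved by 0.29, 0.19 and 0.67 in A, B and C, where vehicle had 1.31, 1.75 and 1.19. The test of the difference between agents in this change, added after seeing the data, called 0 members in limma, against 0.37% of all genes, with 3 at an unadjusted p under 0.05. With the replicate block it called Slc2a1 (-1.03, adjusted p = 0.0476), against 3.76%. Without C it called 8 of the 29 members, P4ha2 and Car9 among them, all below 0, against 5.24%, from Pfkl at -0.83 to Ndrg1 at -2.41.

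**Figure D3:**
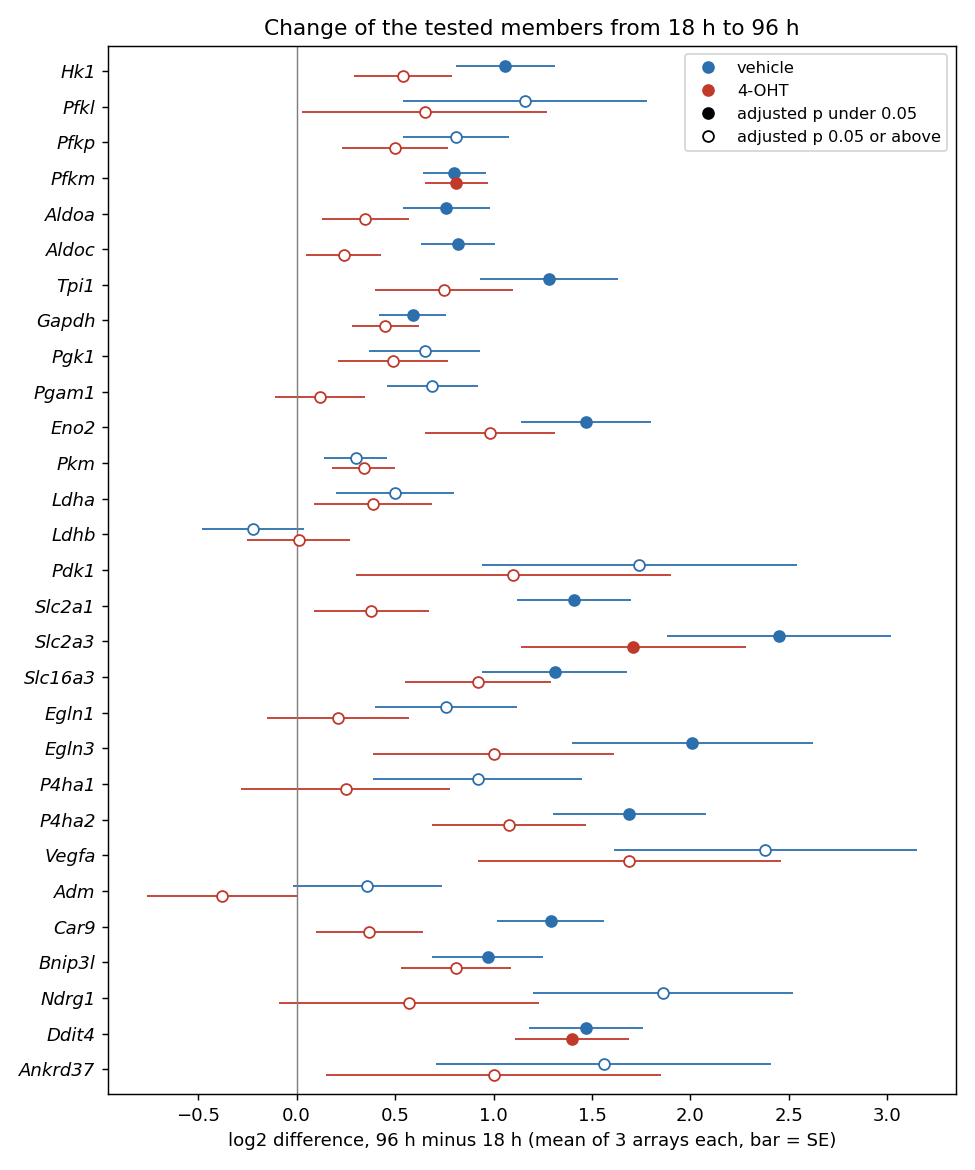
Log2 difference between 96 h and 18 h (horizontal axis) for each of the 29 tested members in vehicle (blue) and 4-OHT (red) cultures, with the standard error as a bar (3 arrays a group). Filled points were called: 15 in vehicle, with Slc16a3, P4ha2 and Car9 among them, and 3 with 4-OHT.

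The comparison of 4-OHT with vehicle at a single time asked which members changed after the recombinase was turned on. At 6, 12, 18, 24 and 48 h 0 members were called in limma, against 0%, 0%, 0.126%, 0.352% and 1.21% of all genes, and 0, 0, 0, 0 and 1 had an unadjusted p under 0.05. The replicate letters were taken to pair the arrays at 18, 24, 48 and 96 h, though unlike letters were not compared. With the letter as a block 2 members were called higher at 24 h, against 1.21% of all genes. These were Pdk1 and Ankrd37.

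Pdk1 at 24 h read 8.95, 9.04 and 6.49 with 4-OHT and 7.78, 7.74 and 5.8 with vehicle. Each 4-OHT array lay above the vehicle array of its letter, by 1.17, 1.3 and 0.69, although the pooled groups overlapped through C. The mean difference was 1.05, with an adjusted p of 0.00561 with the block and 1 without it. Ankrd37, an ankyrin repeat gene known as a HIF target, differed by 1.09, 1.42 and 0.79 (mean 1.1, adjusted p = 0.0418 with the block). Its levels were 8.29, 8.55 and 5.77 with 4-OHT and 7.2, 7.13 and 4.99 with vehicle.

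Egln3 and Ndrg1 were not called with the block at 24 h (adjusted p = 0.0814 and 0.32). Egln3 read 7.84, 7.76 and 6.43 with 4-OHT and 6.72, 6.54 and 6.2 with vehicle. Ndrg1, a stress response gene, read 6.29, 6.58 and 4.75 against 4.95, 5.23 and 4.44. Without C, 10 members were called higher at 24 h, against 1.54% of all genes: Pdk1 1.24, Slc2a3 1.07, Egln3 1.17, Vegfa 0.78, Adm 0.88, Bnip3l 0.57, Ndrg1 1.35, Ankrd37 1.25, and Slc16a3 and P4ha2, which were undetected on the vehicle arrays. In C, Slc2a3, P4ha2 and Vegfa were lower with 4-OHT, by -0.25, -0.22 and -0.33. Of the 12 glycolytic enzymes 0 were among them, and their median was 0.14.

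The median difference at 24 h over the 29 members was 0.37 in A, 0.23 in B and 0.02 in C, with 25, 24 and 17 above 0, and the all-gene medians lay between -0.01 and 0.01. At 18 h Adm alone was called without C (0.7, adjusted p = 0.0451; 0.478% of all genes higher). At 48 h Adm and Bnip3l were (0.94 and 0.41, adjusted p = 0.000615 and 0.0379; 2.26% of all genes higher). Adm at 48 h read 9.6, 9.54 and 8.34 with 4-OHT and 8.82, 8.43 and 8.08 with vehicle, higher with 4-OHT in each letter.

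At 96 h, of the 29 members, 2 were called lower, against 2.68% of all genes, and 0 higher, against 3.01%. Of the 29, 3 lay above 0, with a median of -0.35 against 0 over all genes. Within the letters the medians were -0.55, -0.39 and -0.11 in A, B and C, with 2, 2 and 11 above 0. Aldoc, the aldolase of astrocytes and neural progenitors, read 10.82, 10.76 and 10.78 with 4-OHT and 11.92, 11.58 and 11.33 with vehicle. The groups did not overlap, and the difference was -0.82 (SE 0.19, 3 arrays a group, limma adjusted p = 0.00635). It was -0.67 (adjusted p = 0.0784) without vehicle replicate A. A second, dim Aldoc probe, detected on 10 arrays, read 4.58, 4.59 and 4.57 with 4-OHT and 4.82, 4.88 and 4.41 with vehicle. There the groups overlapped, and C went the other way. Car9 read 4.85, 4.66 and 4.19 against 5.88, 6.39 and 4.37. Its difference of -0.98 (SE 0.27, adjusted p = 0.0286) came from A and B, at -1.03 and -1.73, and was -0.18 in C, where it was not detected. The call was lost without vehicle A (-0.81, adjusted p = 0.185), vehicle B (-0.55, 0.385), 4-OHT B (-1.02, 0.0703) or 4-OHT C (-0.79, 0.157).

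With the replicate block 9 members were called lower at 96 h, against 7.8% of all genes. They were Hk1 (-0.69, adjusted p = 0.0102), Pfkp (-0.7, 0.0134) and Aldoc among the enzymes, the carriers Slc2a1 (-0.74, 0.0138) and Slc2a3 (-0.71, 0.0454), the collagen hydroxylases P4ha1 (-0.77, 0.00477) and P4ha2 (-0.76, 0.00564), and Vegfa (-0.68, 0.0246) and Car9. Hk1 fell in every letter, with 6.4, 6.32 and 6.25 against 7.41, 6.86 and 6.77. Pfkp read 6.4, 6.57 and 6.96 against 7.28, 7.07 and 7.69. Both sets of groups stood apart on these probes. On a second, dimmer probe of each gene the groups overlapped. Hk1 there read 4.9, 4.78 and 4.63 with 4-OHT and 5.08, 4.96 and 4.61 with vehicle. Pfkp read 5.63, 5.12 and 5.94 against 5.86, 5.82 and 5.67, the other way round in C.

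P4ha1, which read 8.21, 8.33 and 7.52 with 4-OHT and 9.31, 9.16 and 7.9 with vehicle, differed by -1.1, -0.83 and -0.38. A second P4ha1 probe read 7.55, 7.5 and 6.74 against 8.12, 8.29 and 6.56, so that C went the other way. Slc2a1 read 9.77, 9.83 and 9.76 against 10.78, 11.08 and 9.73, so that C differed by 0.03. Without C, 12 members were called lower, against 7.87% of all genes, among them Ndrg1 (-1.62, adjusted p = 0.0011), Egln3 (-0.75, 0.00565) and Adm (-0.53, 0.0326), which the block did not call. Ndrg1 read 6.44 and 6.2 with 4-OHT and 8.03 and 7.85 with vehicle in A and B, and 5.02 and 4.3 in C, the other way round.

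The 3 members above 0 were Pkm, Ldhb and Ddit4. Pkm differed by 0.12 and Ddit4 by 0.08 (adjusted p = 0.917 and 0.99). Ldhb, the lactate dehydrogenase subunit of tissues that use lactate, read 5.48, 5.78 and 6.09 with 4-OHT and 5.11, 5.3 and 4.88 with vehicle, higher in each letter, and was not called (0.69, adjusted p = 0.15). Oligodendrocyte markers moved the other way from the members at this time, 6 of the 9 tested being called higher with a median of 2.15. Of all genes 3.01% were called higher. Summed neural stem cell marker intensity, before normalization, was 14160 to 18180 with 4-OHT and 18620 to 31590 with vehicle. In C it was 18180 against 18620. Summed oligodendrocyte marker intensity was 20140 to 30110 against 10360 to 17330, and that of astrocyte markers 323.3 to 352.2 against 428.5 to 546.6. Neuron markers summed to 5505 to 6106 with 4-OHT against 3140 to 5283 with vehicle. The lowest vehicle value of each sum came from C, the dimmest vehicle array at 96 h. The part of cell type in the members' differences was not tested. The defining endothelial markers Pecam1, Cdh5 and Kdr were detected on 0 arrays.

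**Figure D4:**
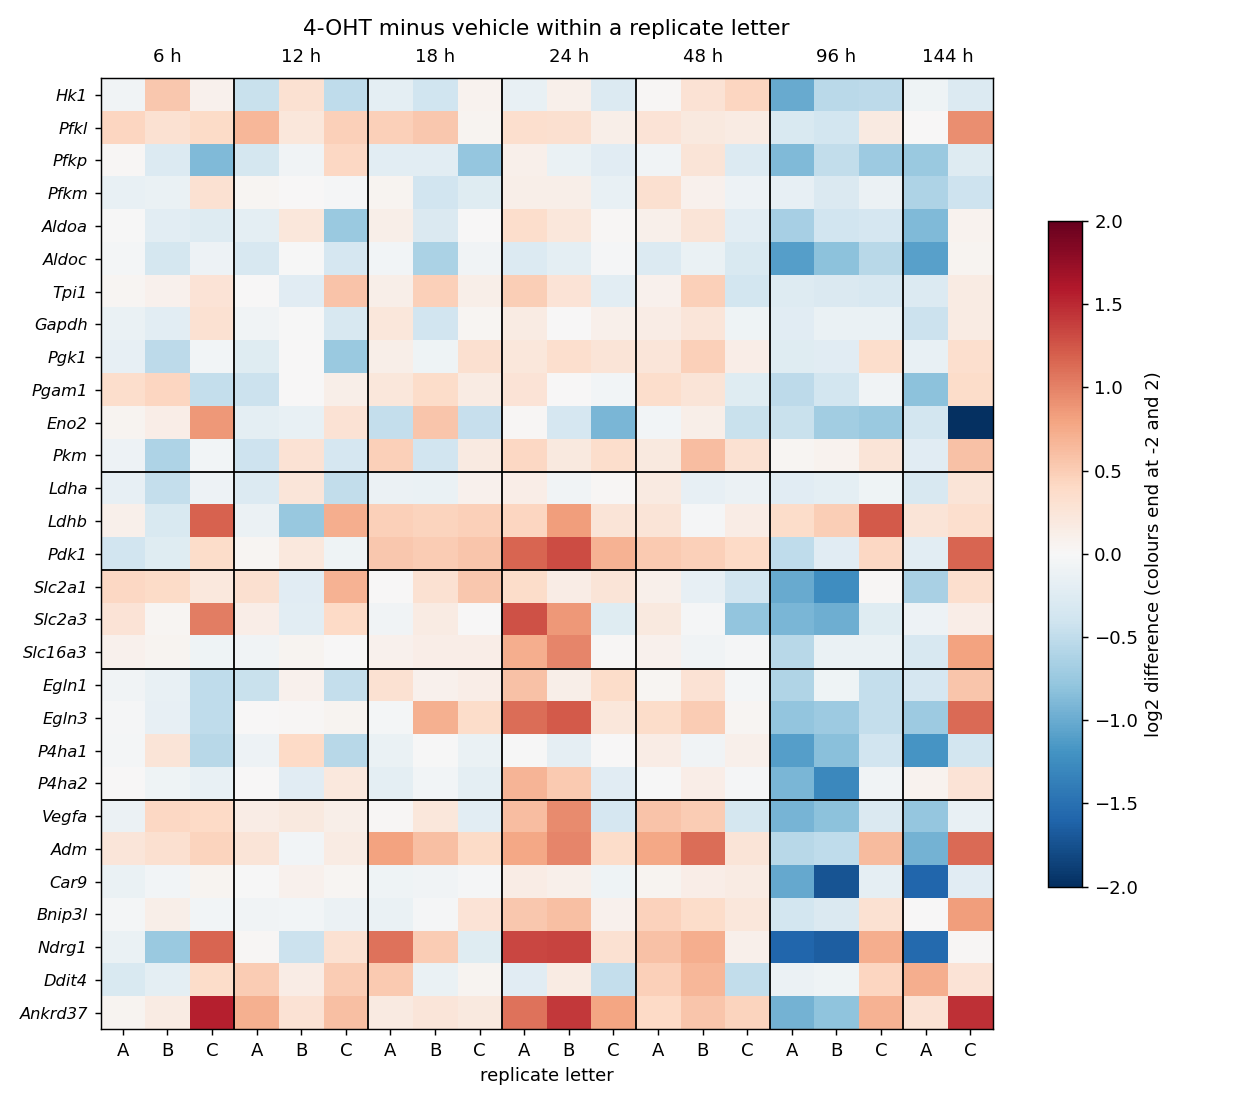
Difference of 4-OHT minus vehicle within each replicate letter (columns, grouped by time) for the 29 tested members (rows, grouped by role), in log2 units, red where 4-OHT is higher and blue where it is lower. Most hypoxia genes are red in A and B at 24 h and blue at 96 h, Ndrg1 going from 1.34 and 1.35 to -1.59 and -1.65. In C it is 0.31 and then 0.72.

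The sign of the median difference thus turned between 24 and 96 h in A and B. Its change, the difference at 96 h minus that at 24 h, was a contrast added after seeing these values. In limma 0 members were called, against 0.108% of all genes, and 4 had an unadjusted p under 0.05, while the median was -0.66 against 0 and 27 of 29 lay below 0. With the replicate block 5 were called, all below 0, against 2.11% of all genes: Pdk1 (-1.16, adjusted p = 0.0395), Slc2a3 (-1.34, 0.0349), Egln3 (-1.52, 0.0187), P4ha2 (-1.09, 0.0283) and Vegfa (-1.09, 0.0484).

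Without C 13 were called, all below 0, against 4.1% of all genes, the largest being Ndrg1 at -2.96 (SE 0.46, adjusted p = 0.00026). A glycolytic enzyme, Pfkl at -0.65 (adjusted p = 0.0367), was among them. So were Slc16a3, P4ha2 and Car9, which met the filter only through late arrays. Over all 5 times from 18 h, a test of whether the difference varied with time called 0 members, against 1.07% of all genes, with 1 at an unadjusted p under 0.05. Without C it called 15, against 9% of all genes, Car9, P4ha2 and Slc16a3 among them.

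At 144 h, with 2 arrays a group, Eno2 alone was called lower, against 3.82% of all genes, and 0 members higher, against 4.21%. It read 7.1 and 6.69 with 4-OHT and 7.47 and 9.05 with vehicle in A and C. The difference was -1.36 (SE 0.41, adjusted p = 0.0362), of which vehicle replicate C carried most, since A differed by -0.37 and C by -2.36. Without that array it was -0.58 (adjusted p = 0.564), and the call was also lost without either 4-OHT array (adjusted p = 0.0734 without A and 0.203 without C).

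The letters differed at 144 h. In A 6 of 29 members lay above 0, with a median of -0.33, and in C 22 did, with a median of 0.28. Adm differed by -0.94 in A and 1.13 in C, and Egln3 by -0.72 and 1.14. P4ha1 and Car9 were lower in both, by -1.18 and -0.37 and by -1.58 and -0.23. On a second probe of each, C went the other way, P4ha1 reading 7.38 with 4-OHT and 7.1 with vehicle and Car9 4.55 and 4.48. With 4-OHT Egln3 read 9.11 in A and 8.71 in C, and with vehicle 9.83 and 7.57, so that the gap between letters lay in the vehicle arrays. Without C, where each group is 1 array assumed to vary like the other groups, 8 members were called lower, against 7.02% of all genes.

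Between 96 and 144 h, C gives a single array a group and no test. With 4-OHT C, 28 of 29 members read higher at 144 h, with a median of 0.78, and in vehicle C 26 did, with 0.58, against 48.6% and 51.2% of all genes. In A the medians were 0.12 and 0.1. Pdk1 with 4-OHT in C read 6.87 at 96 h and 9.3 at 144 h, and Vegfa read 8.71 and 11.34. Pooled over letters, 0 members were called between 96 and 144 h with vehicle, against 2.08% of all genes, or with 4-OHT, against 0.018% (3 and 3 at an unadjusted p under 0.05).

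Between 6 and 12 h 0 members were called in limma with vehicle, against 0.397% of all genes, or with 4-OHT, against 0.307%, and 2 and 2 had an unadjusted p under 0.05. Pfkp had the largest difference in vehicle. It read 6.67, 6.82 and 7.46 at 6 h and 6.11, 5.87 and 5.87 at 12 h, without overlap (-1.03, adjusted p = 0.0703). Over 18 to 144 h as a whole, 14 of the 26 members changed with time in vehicle, against 16.4% of all genes, and 5 with 4-OHT, against 11.8%: Hk1, Pfkp, Pfkm, Eno2 and Ddit4. Vegfa (adjusted p = 0.0102), Pfkp and Pgam1 were called in vehicle over this span though not between 18 and 96 h.

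The regulators of these genes were measured too. Of 10 HIF pathway regulators, all tested, 0 were called between agents at any of the 7 times. Hif1a, the oxygen-labile alpha subunit, differed by -0.77 from 18 to 96 h in vehicle and by -0.66 with 4-OHT (adjusted p = 0.0616 and 0.0892), below 0 in both. Epas1 differed by 0.21 and 0.27 and Vhl by 0.11 and 0.01. Cited2, a HIF target whose product competes with HIF for its coactivator, rose with 4-OHT by 0.76 (adjusted p = 0.0345) and differed by 0.56 in vehicle (adjusted p = 0.143).

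Of 86 further genes of the pathway, these regulators included, 63 were tested. From 18 to 96 h in vehicle 12 rose, against 5.14% of all genes, and 1 fell, against 2.06%, with a median of 0.34 against 0.01. Those with the largest differences were Anxa2 3.01, Ppp1r3c 2.37 (a glycogen-targeting subunit of protein phosphatase), Nrn1 1.59, the carbonic anhydrase Car12 1.5, the brain glycogen phosphorylase Pygb 1.3, Vldlr 1.24, Bhlhe40 1.13 and the phosphoglucomutase Pgm1 1.12. For Ppp1r3c, Nrn1, Car12 and Vldlr the 18 h and 96 h arrays overlapped. Results without C are not given for these further genes. The gene that fell, named after its value was seen, was the transferrin receptor gene Tfrc (-0.81). With 4-OHT 5 of the 63 rose and 2 fell, against 7.87% and 3.84% of all genes: Anxa2 2.18, Nrn1 1.2, Vldlr 1.05, Eno3 0.88, Cited2 0.76, Pdhb -0.45 and Tfrc -1.23. The Vldlr arrays of the 2 times overlapped here too.

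Between agents, 3 of these further genes were called at 96 h, 1 higher and 2 lower, against 3.01% and 2.68% of all genes, and 7 at 144 h, 2 higher and 5 lower, against 4.21% and 3.82%. At 96 h the muscle glycogen phosphorylase Pygm (-1.01, adjusted p = 0.0219) and the secreted glycoprotein gene Stc2 (-0.98, 0.0245) were lower with 4-OHT, and Lox, which cross-links collagen, was higher (0.44, 0.00327). At 144 h Ppp1r3c (-2.42), Pygm (-1.87), Pygb (-1.69), Pdk4 (-0.78) and Hspa9 (-0.52) were lower and Narf (1.04) and Lox (0.86) higher, with adjusted p between 5.56e-06 and 0.043.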

How the data were processed

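RNA was measured on 40 Illumina MouseWG-6 bead arrays. The deposited table gives, per the file headers, an intensity and a detection value for each probe and array; the authors' log2 values are deposited beside it. GenomeStudio and lumi are named in the submitters' processing notes, with no version, and the authors' log2 values ranked probes as the intensities did (lowest rank correlation 0.999973). Of 45281 probes, 21 rows out of step with the header were dropped; 34872 of the rest had 1 gene symbol in the platform annotation, 18 several and 10370 none.

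Intensities were background-corrected and quantile-normalized with limma 3.58.1 (neqc, offset 16) in R 4.3.3. A probe was kept where 3 or more arrays had a detection p below 0.01 (21740 probes, 11087 genes). A gene was represented by its passing probe with the highest mean. One model of 14 group means over all 40 arrays was fitted with lmFit and eBayes (intensity trend), with Benjamini-Hochberg adjustment over 21740 probes; SE and adjusted p come from it. The script was tested on simulated data. Every member is named; of the further pathway genes called, at most the 8 with the largest difference per comparison. The members and lists were chosen with earlier results of these data known.

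Letters were taken to pair the 4-OHT and vehicle arrays. The correlation of residuals between same-letter arrays was 0.367 to 0.783 for every pair at 18, 24, 48 and 96 h. At 6 and 12 h it went down to -0.143, and at 144 h there were 2 pairs. Arrays of unlike letters were not correlated. A replicate C that stands apart in both agents also raises these values, so they cannot show that A pairs with A and not with B. Across times within an agent the letters did not pair (-0.0543 to 0.0553 between 18 and 96 h). No array of a group was an exact copy of another (highest correlation 0.997), which does not tell technical repeats from separate cultures. The number of arrays limits the precision. Alternatives were other scalings, filters, blocks, array weights and arrays left out. Promoters are from RefSeq, GRCm38.p6; Bnip3l, Ndrg1 and Slc2a3 have no window there.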

Additional observations from a re-analysis of the deposited data

How the results depend on the processing

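Of 435 values of called members under an alternative, 291 kept direction and call, 144 lost the call and 0 reversed. A further 536 uncalled values changed sign. These values and the counts below are over all 29 tested members. Counts of change over time therefore include Slc16a3, P4ha2 and Car9, whose higher late values the filter built in. In the replicate block, counts of called members were 2 at 24 h, 9 at 96 h and 4 at 144 h between agents (Pfkm, Eno2, P4ha1 and Car9 at 144 h), 1 for change of the difference with time, 1 for vehicle 6 to 12 h, and for 4-OHT 9 from 18 to 96 h and 11 over 18 to 144 h; it changed no other count by over 1.5 times. The array series as a block gave 4 at 96 h and 2 at 144 h, 1 for vehicle 6 to 12 h, 25 and 12 from 18 to 96 h in vehicle and 4-OHT, and 26 and 18 over 18 to 144 h. Replicates A and B alone gave 4, 11, 8, 19 and 13 between agents at 18, 24, 48, 96 and 144 h, 28 and 25 from 18 to 96 h, 10 and 10 from 96 to 144 h, 23 for change of the difference, and 28 and 29 over time. Array weights gave 1, 13, 4, 21 and 0 between agents, 2 for 4-OHT 6 to 12 h, 28 and 23 from 18 to 96 h, 15 for change of the difference, and 28 and 26 over time. Median scaling gave 1 at 96 h, 0 at 144 h, 4 and 0 from 18 to 96 h, and 10 and 2 over time; it moved the all-gene median by 0.44 at 6 h, -0.11 at 18 h, -0.13 at 144 h, 0.61 and 0.17 between 6 and 12 h in vehicle and 4-OHT, and 0.18 for vehicle 96 to 144 h and for 4-OHT 18 to 96 h. No detection filter gave 0 at 144 h, a filter of 20 arrays 1 at 96 h. Fitting only the groups compared, with fewer arrays to estimate the spread, gave 1 at 96 h, 0 at 144 h, 0 and 0 from 18 to 96 h, 2 for 4-OHT 6 to 12 h and 10 over time in vehicle. Leaving out arrays gave 0 to 1 at 18 h, 0 to 10 at 24 h, 0 to 2 at 48 h, 0 to 12 at 96 h, 0 to 8 at 144 h, 0 to 27 and 0 to 20 from 18 to 96 h in vehicle and 4-OHT, 0 to 4 and 0 to 3 from 96 to 144 h, 0 to 1 for vehicle 6 to 12 h, 0 to 15 for change of the difference, and 1 to 27 and 0 to 23 over time. Of single arrays, leaving out vehicle 96 h replicate A or B left 3 members called from 18 to 96 h in vehicle, and leaving out replicate C gave 22. Except as stated, the cause of these shifts was not tested.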
